A study of Mus musculus with 12 samples.

Results

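The genes described are the cytosolic ribosomal protein genes, chosen by gene symbol: those named Rpl or Rps with a number and at most 1 further letter a, x or y, together with Rpsa, Rplp0, Rplp1 and Rplp2. The rule found 76 of the 32285 genes in the count tables, 46 of the large and 30 of the small ribosomal subunit. Fau and Rps3a1, whose products also belong to the ribosome, fall outside the rule. Each ribosome carries 1 copy of most of these proteins, and their genes are transcribed at high levels. Many of their mRNAs begin with a C followed by a run of pyrimidines, the 5′ terminal oligopyrimidine (TOP) tract, through which the kinase complex mTORC1 controls their translation. T cells enlarge their pool of ribosomes when they are activated and begin to divide, and ribosomal protein mRNAs are among the most abundant transcripts of a lymphocyte.

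All T cells were taken from subcutaneous MCA205 fibrosarcomas of C57Bl/6 mice. In the anti-ACBP group (n = 3 mice) an antibody against acyl-CoA binding protein, also called DBI, was injected to neutralise it; the isotype group (n = 3) was given IgG2a instead. Either antibody was dosed at 2.5 mg/kg at intervals of 2 days, beginning 2 days ahead of chemotherapy and ending 1 day ahead of immunotherapy. Both groups shared all else that the labels give: 300000 injected tumour cells, 10 mg/kg of oxaliplatin 8 days later and 200 µg of anti-PD1 after 8 further days. Tumours were taken 2 days after anti-PD1. CD4+ and CD8+ T cells were sorted and mixed 1:1, and 10000 cells per mouse were loaded for 5′ single-cell sequencing. The sort thus sets the balance of CD4 and CD8 cells, and there was no group without chemoimmunotherapy.

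The values below are unique molecular identifiers (UMIs, counted molecules) of the 30749 cells in the deposited cell table, which divides them into clusters 0 to 8. The 3 anti-ACBP libraries held 28037851 to 53150273 UMIs in 2923 to 6350 cells and the 3 isotype libraries 27791735 to 65519423 UMIs in 4706 to 7238 cells. In all, 536 cell barcodes occurred in more than 1 library, at most 63 in any pair. T cell transcripts (Cd3e and 6 others, all detected) summed to 4858 to 5253 CPM, the UMIs scaled to the library total, in anti-ACBP and 4407 to 5224 CPM in isotype libraries. Of other cell types, the 4 dendritic markers Flt3, Xcr1, H2-Ab1 and Cd74 summed to 112 to 153 CPM in anti-ACBP and 131 to 205 CPM in isotype libraries. The 7 macrophage and monocyte markers summed to 11.6 to 15.3 CPM and 11.6 to 14.9 CPM, with Adgre1 at 0, the 3 NK markers to 9.05 to 16.98 CPM and 14.4 to 15.5 CPM, and the B markers to 2.43 to 4.32 CPM and 3.37 to 4.50 CPM, with Ms4a1 at 0. The 3 endothelial markers Pecam1, Cdh5 and Kdr, at 11.5 to 17.5 CPM in anti-ACBP and 18.8 to 21.7 CPM in isotype libraries, did not overlap. In clusters 3 to 8 Cdh5 and Kdr were at 0, so the sum there was Pecam1 alone. The part of these markers in the results was not tested. Markers of neutrophils, of fibroblasts and tumour cells and of red cells summed to at most 0.533 CPM. Cluster 2 was regulatory T-like, with Foxp3 at a mean of 557 CPM and Il2ra at 1267 CPM. Cluster 0 had Cd8a at 1397 CPM, cluster 1 had Cd4 at 495 CPM, and cluster 4 was cycling-like, with Mki67 at 750 CPM. In cluster 1 Cd8a and Cd8b1 summed to 310 to 560 CPM in anti-ACBP and 99.2 to 486 CPM in isotype libraries. In cluster 7 they summed to 234 to 640 CPM and 27.3 to 477 CPM. What this mix of lineages contributes to the values of these clusters was not tested.

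To show the pyrimidine runs near their starts, the 30 bases around the RefSeq start of 8 of the genes described below are printed. They are 15 bases before the start and 15 from it on, on the gene's strand (GRCm38.p6). Capitals mark the longest run of C or T.
Rpl28 (chr7:4792950-4792979, plus strand): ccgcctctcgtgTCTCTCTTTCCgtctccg
Rps18 (chr17:33955651-33955680, minus strand): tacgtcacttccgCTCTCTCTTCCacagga
Rps26 (chr10:128626492-128626521, minus strand): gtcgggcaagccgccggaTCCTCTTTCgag
Rps27 (chr3:90213634-90213663, minus strand): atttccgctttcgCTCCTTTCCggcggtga
Rpl34 (chr3:130730323-130730352, minus strand): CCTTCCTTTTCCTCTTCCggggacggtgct
Rpl13a (chr7:45128731-45128760, minus strand): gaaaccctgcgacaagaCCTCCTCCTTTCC
Rpl10a (chr17:28328456-28328485, plus strand): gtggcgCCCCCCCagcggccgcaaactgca
Rpl22 (chr4:152324421-152324450, plus strand): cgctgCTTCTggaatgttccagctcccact
Rpl28 and Rps18 each held a run of 11 pyrimidines that crosses the annotated start, Rpl34 a run of 18 that ends just after it, and Rpl22 no run longer than 5. The marked runs of Rpl10a and Rpl22 lie wholly before the start shown, outside the mRNA annotated from it.

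The promoter table held an entry for 56 of the 76 genes. Where a gene had more than 1 listed start, as Rpl34, Rpl10a and Rpl22 did, the start with the longest run was taken, and letters counted as present if any start held them. A run of at least 8 pyrimidines lay in the 30-base window of 44.6% of these 56 genes and of 13.9% of all 27025 genes with an entry. The letters TCTTTC, searched on both strands of that window, occurred in 14.3% and 2.52%. In the longer window of 250 bases before to 50 after the start, CCGGAAG, letters bound by ETS-family factors, was present on either strand in 41.1% of the ribosomal protein genes and 9.93% of all genes, and GGGCGG, the letters of a GC box, in 60.7% and 38.2%. TATAAA was present in 10.7% and 15.7%. The 76 genes lie on 19 chromosomes, 4 of them on X, so what they share at their starts is not a shared location.

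Ribosomal protein genes were a large part of all molecules counted in these cells, and the amount did not separate the groups. Their share of UMIs was 24.5%, 24.7% and 24.7% in the anti-ACBP libraries and 25.2%, 24.3% and 24.6% in the isotype libraries. The means were 24.6% ± 0.108 and 24.7% ± 0.447 (SD, n = 3 each; exact two-sided permutation p = 0.9, where 0.1 is the smallest possible). The groups overlapped, with isotype mice at both ends. Barcodes left out of the cell table, with medians of 582 to 995 UMIs, held shares of 23.0% to 24.9% in anti-ACBP and 23.5% to 26.3% in isotype libraries. Whether these barcodes are empty droplets or cells that were filtered out was not tested.

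The balance between the subunits was taken as a ratio, and the groups overlapped. The summed large-subunit genes gave 1.35 ± 0.004 UMIs for each small-subunit UMI in anti-ACBP and 1.34 ± 0.011 in isotype libraries (SD, n = 3 each; exact permutation p = 0.2). Over the 9 clusters the mean ratio ran from 1.31 to 1.37 in anti-ACBP and from 1.31 to 1.36 in isotype libraries, and cluster 4, the cycling-like cells, was lowest in each.

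All 76 genes were well measured. Their levels averaged up to 7447 CPM, for Rpl41, with a median of 3266 CPM, and 71 of the genes were at 1000 CPM or more. Mice of 1 group differed little from each other. The coefficient of variation within a group, averaged over both groups, had a median of 3.43% over the 76 genes, against 5.08% over 23 other genes at 2405 CPM or more.

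The clearest pattern in the family was its low level in the regulatory T-like cluster 2. There the share was 19.1%, 18.03% and 17.6% in anti-ACBP libraries and 20.6%, 19.5% and 19.9% in isotype libraries. In the other 8 clusters the mean over the 6 libraries lay between 23.0% (cluster 5) and 27.4% (cluster 3). Cluster 2 was lower than the other 8 clusters in every library, and its share minus their mean was -5.38, -7.42 and -6.54 percentage points in anti-ACBP and -5.14, -5.57 and -5.46 in isotype libraries. The clusters were made from the expression of these cells, these genes included, so the levels across clusters are a description without a test.

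**Figure D1:**
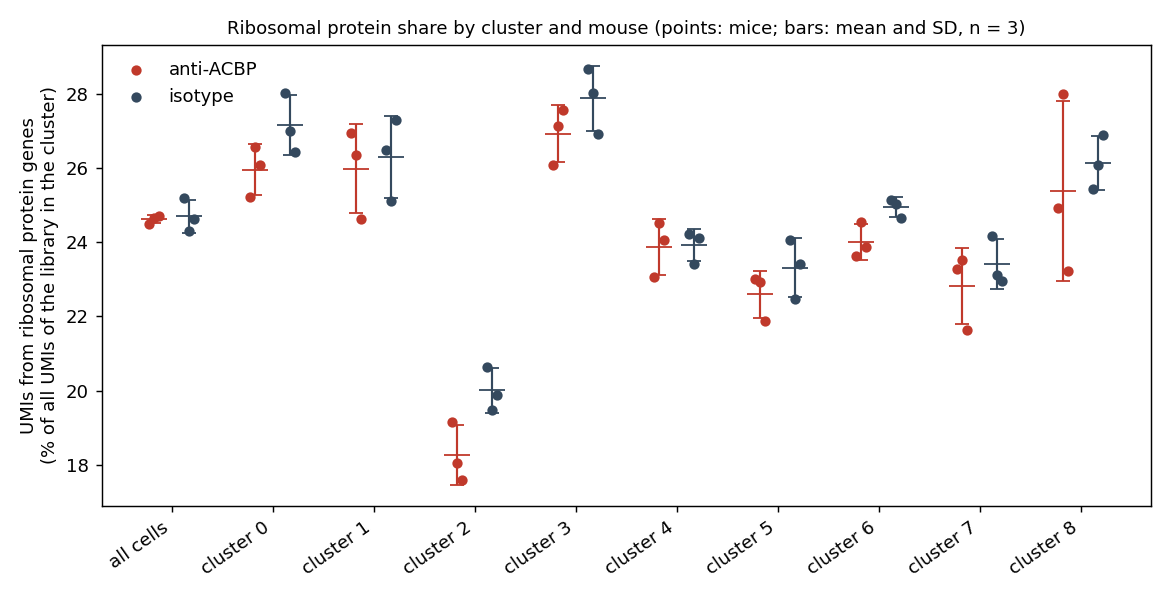
Percent of UMIs from the 76 ribosomal protein genes (vertical axis, which does not start at 0) in all cells and in each cluster, anti-ACBP to the left of isotype. Each point is 1 mouse and the bars are the mean and SD of 3 mice; cluster 2 lies below all other clusters in both groups, at 17.6% to 20.6%.

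The low level in cluster 2 was shared by the whole family. Setting each gene's log2(CPM + 1) in a cluster against the mean over the 9 clusters of the same library, all 76 genes were below 0 in cluster 2, with a median of -0.33. All 76 were above 0 in cluster 3, with a median of 0.17. The medians of the remaining clusters ran from -0.08 in cluster 5 to 0.13 in cluster 0. Cluster 2 was the lowest of the 9 clusters for 71 genes, and cluster 3 the highest for 40, cluster 1 for 20 and cluster 0 for 11.

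Depth per cell did not follow this order. The median UMIs per cell were 5896 in cluster 2, near the 5858 of cluster 0, and 13194 in the cycling-like cluster 4, where the median cell held 23.4% ribosomal protein UMIs. The median cell of cluster 2 held 17.7% and that of cluster 0 26.2%. Within a library, the share of a cell and its UMI total had Spearman correlations of 0.1004, 0.125 and 0.156 in the anti-ACBP libraries and 0.041, 0.097 and 0.102 in the isotype libraries, across cells that share a library. By the deposited phase, the median share was 24.5% in G1, 25.1% in S and 22.8% in G2M cells. These pooled values did not hold within cluster 2, where the medians were 16.9% in G1, 20.4% in S and 19.2% in G2M cells. The share of cluster 2 also rose with depth. It was 14.7% in its group of cells with the fewest UMIs (median 2373) and 21.6% in that with the most (median 17228). The same groups of cluster 0 had 24.5% and 26.8%. With cells of 4000 to 8000 UMIs alone, the gap of cluster 2 to the mean of the other clusters was -7.23 percentage points, and in G1 cells -7.16, against -5.92 with all cells.

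Within the family, single genes departed from the common pattern by cluster. Rps26, which lines the channel where mRNA leaves the ribosome, was among the genes lowest in cluster 2, at a relative level of -0.51. In cluster 3 it had 4758, 5133 and 5303 CPM in anti-ACBP and 5111, 5237 and 5507 CPM in isotype libraries, and in cluster 2 it had 2920, 2706 and 2370 CPM in anti-ACBP and 3411, 3150 and 3410 CPM in isotype libraries. The 2 clusters did not overlap in any library. Rplp1, a protein of the stalk that recruits elongation factors, had the narrowest range, 0.24, and was the gene least lowered in cluster 2, at -0.06.

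**Figure D2:**
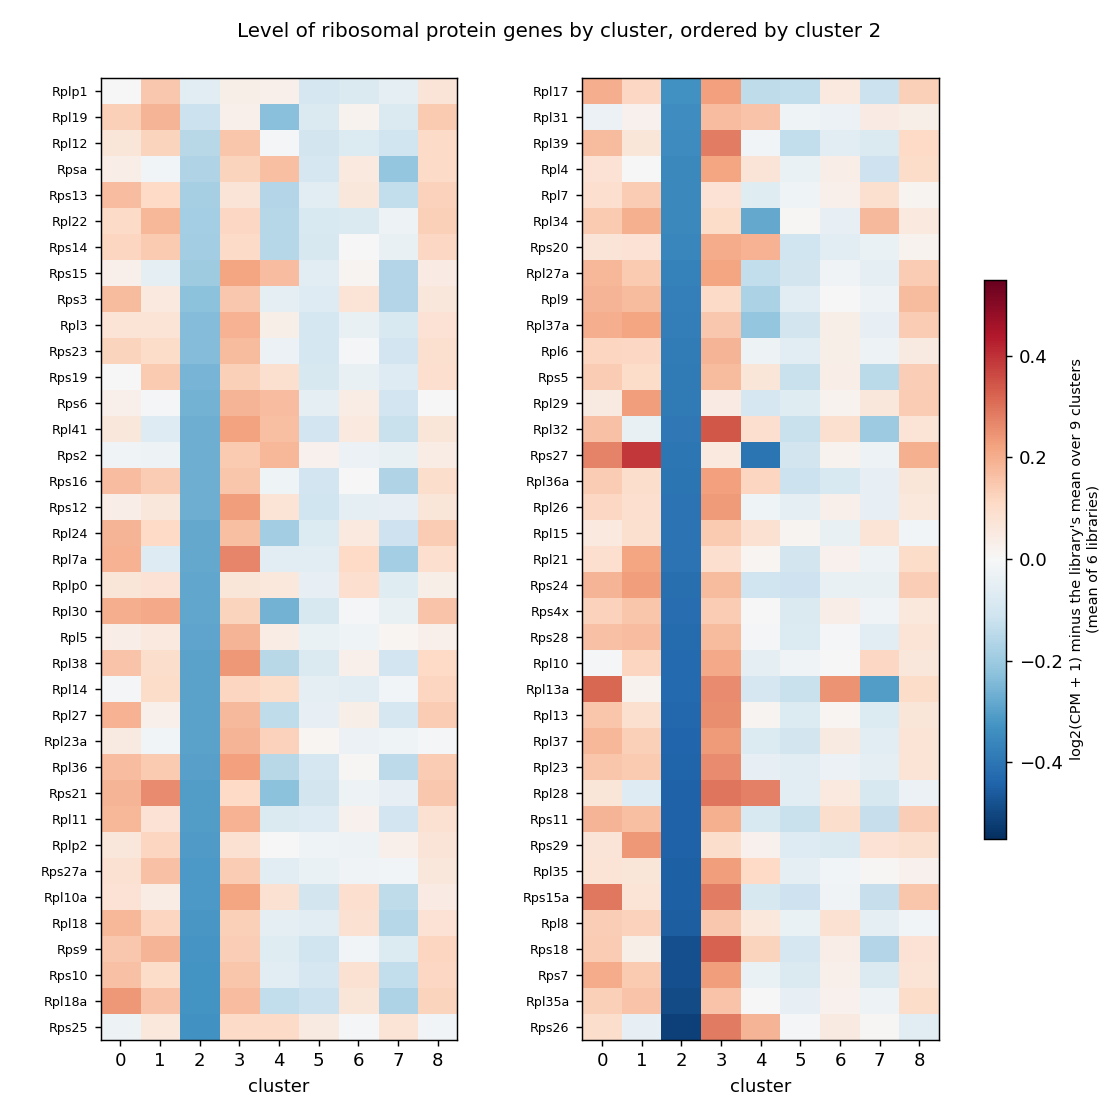
Relative level of 74 of the 76 genes (rows, in 2 panels) in the 9 clusters (columns), as log2(CPM + 1) minus the mean over clusters of the same library, averaged over the 6 libraries. Rows are ordered by cluster 2, whose column is below 0 for every gene drawn, at -0.06 for Rplp1 and -0.51 for Rps26; Rps27, Rpl13a and Rpl34 break the pattern elsewhere.

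Rps27, a zinc-binding protein of the small subunit, varied most clearly between the clusters other than 2. In cluster 1, the Cd4-rich cells, it had 5375, 5258 and 4937 CPM in anti-ACBP and 4959, 5532 and 5738 CPM in isotype libraries, and its relative level of 0.39 was the highest of any gene there. In cluster 4, the cycling-like cells, it had 2791, 3281 and 3054 CPM in anti-ACBP and 2836, 3328 and 3142 CPM in isotype libraries, and its relative level of -0.40 was the lowest. The anti-ACBP and isotype mice overlapped in both clusters, and no library of one cluster reached those of the other. Rpl34, a large-subunit protein, had the second lowest level in cluster 4, at -0.28, and was the highest in cluster 7, at 0.18.

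Rpl28, a large-subunit protein without a counterpart in budding yeast, was among the highest of the family in cluster 4, at 0.28. It had 3779, 3854 and 3815 CPM in anti-ACBP and 4078, 3715 and 3985 CPM in isotype libraries there, and the groups overlapped.

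Rpl13a, a large-subunit protein that in human monocytes also joins a complex silencing inflammatory mRNAs, was the highest member in clusters 0 and 6, both rich in Cd8a, at 0.32 and 0.25, and the lowest in cluster 7, at -0.31. Cluster 7, with Cd4 at 580 CPM, had 2448, 2416 and 2096 CPM of Rpl13a in anti-ACBP and 2367, 2100 and 2031 CPM in isotype libraries. Cluster 0 had 3704, 3508 and 3386 CPM in anti-ACBP and 3910, 3351 and 2925 CPM in isotype libraries. The clusters were separate in each library. Rps15a, of the small subunit, followed in cluster 0 at 0.29 and Rps21, also of the small subunit, was second in cluster 1 at 0.26. Rpl32 and Rps18 led cluster 3, at 0.34 and 0.32, and Rpl19 was last there, at 0.03. Rpl17, of the large subunit, was last in cluster 5, at -0.14.

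**Figure D3:**
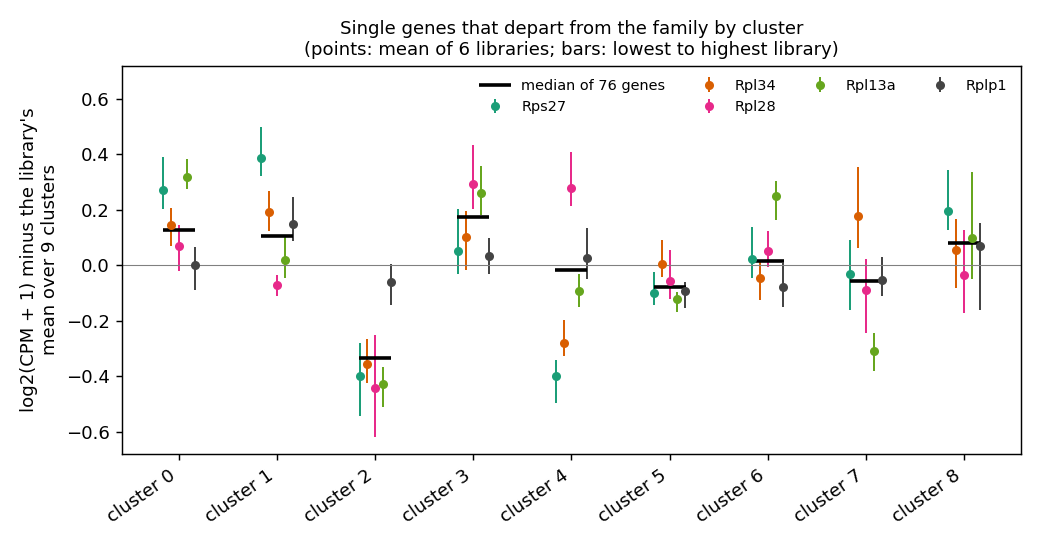
Relative level (log2 scale) of 5 genes in the 9 clusters; points are means of 6 libraries, bars run from the lowest to the highest library, and black dashes are the median of the 76 genes. Rps27 lies above the median in clusters 0 and 1 and below it in cluster 4, where Rpl28 lies above it.

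Over the 54 sums of 6 libraries by 9 clusters, the gene most like the summed family was Rps3a1 (Pearson r = 0.947 of log2 CPM), a small-subunit protein gene that its symbol puts outside the rule. It was followed among 2809 genes of at least 50 CPM by Eef1a1, which brings aminoacyl-tRNA to the ribosome (0.934), Rack1, a scaffold protein on the small subunit (0.895), Nsa2, a factor of large-subunit assembly (0.871), and Eef1b2, which recharges Eef1a1 with GTP (0.842). Eif3h, Evl, Eif3e, Naca and Bcl2 completed the first 10, between 0.840 and 0.791. At the other end stood Myo1g, a myosin of lymphocytes (-0.846), and Il2ra, the high-affinity IL-2 receptor chain (-0.828), which marks cluster 2. The sums share libraries and cell clusters, so these are descriptions.

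With anti-ACBP, no ribosomal protein gene passed the test in all cells. By edgeR's quasi-likelihood test, adjusted by the Benjamini-Hochberg method over 12490 genes, 0 of 76 members passed at 0.05, where 2.38% of all genes did, and 0 had an unadjusted p under 0.05, where 21.8% of all genes did; DESeq2 also called 0. The changes were small, from -0.10 to 0.14 on the log2 scale with a median standard error of 0.06 and a median change of 0.00, and 39 genes were negative and 37 positive, where 51.0% of all genes were negative.

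Genes with different roles in the ribosome gave similar values. Rplp0, the base of the stalk, had 4747, 4909 and 4969 CPM in anti-ACBP and 5151, 4437 and 4671 CPM in isotype libraries, a log2 fold change of 0.04. Rps6, the substrate of the kinases downstream of mTORC1, had 1620, 1591 and 1528 CPM in anti-ACBP and 1715, 1502 and 1571 CPM in isotype libraries (-0.01). Both sets of mice overlapped. Rpsa, also known as a laminin receptor, changed by -0.05, Rplp1 by -0.06, Rps27 by 0.05 and Rpl39, at the exit of the peptide tunnel, by -0.05, each with overlapping groups.

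Rpl22 and Rpl41 were lower without overlap and did not pass. Rpl22, a large-subunit protein needed for the development of alpha-beta T cells in mice, had 1680, 1720 and 1727 CPM in anti-ACBP and 1833, 1783 and 1771 CPM in isotype libraries (log2 fold change -0.07 ± 0.05, SE; edgeR, adjusted p = 0.473). Rpl41, which encodes a very short basic peptide of the large subunit, had 7139, 7288 and 7133 CPM in anti-ACBP and 7430, 7409 and 8285 CPM in isotype libraries (-0.10 ± 0.06; edgeR adjusted p = 0.396). In all cells 3 of the 76 genes were lower and 1 higher without overlap, where 14.2% of all genes were lower without overlap.

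Paralogs outside the rule did not pass either. Rpl22l1, the paralog of Rpl22, had 693, 650 and 660 CPM in anti-ACBP and 731, 726 and 782 CPM in isotype libraries, a log2 fold change of -0.15 (edgeR adjusted p = 0.215). Rpl7l1, which takes part in ribosome assembly, had 42.4, 46.1 and 42.4 CPM in anti-ACBP and 40.2, 35.1 and 37.1 CPM in isotype libraries (0.22; edgeR adjusted p = 0.145). The first lay lower and the second higher in anti-ACBP libraries without overlap. Rps27l, a paralog of Rps27 induced by p53, and Rpl36al differed by 0.00 and 0.02 and overlapped.

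With all cells of each cluster, the family leaned toward lower values with anti-ACBP in clusters 0, 2 and 3. The median log2 fold change of the 76 genes was -0.15 in cluster 2, -0.11 in cluster 0 and -0.09 in cluster 3, where the median of all genes tested was -0.01, 0.00 and -0.01. In cluster 1 the median was 0.00, and in clusters 4 to 8 it lay between -0.04 and -0.03. Single libraries set part of these medians: without isotype 1 they were -0.10 in cluster 2, -0.05 in cluster 0 and -0.05 in cluster 3, and without anti-ACBP 3 -0.10 in cluster 2. Without TMM factors, which scale libraries to each other, they were -0.07 in cluster 0 and -0.05 in cluster 3. With 1 library left out the median of cluster 1 ran from -0.06 (without anti-ACBP 1) to 0.05 (without anti-ACBP 3), and the medians of clusters 4 to 8 from -0.16 (without anti-ACBP 2) to 0.06 (without anti-ACBP 3), both in cluster 8. Fold changes were negative for 73 of 76 genes in cluster 2, 73 in cluster 0 and 75 in cluster 3, where 51.5%, 49.9% and 51.3% of all genes were negative; in cluster 1 it was 41 of 76 against 51.5%. Without isotype 1 the negative genes were 72 in cluster 2, 58 in cluster 0 and 59 in cluster 3, and in cluster 1 they numbered from 8 (without anti-ACBP 3) to 69 (without anti-ACBP 1 or isotype 2). In clusters 4 to 8 it was 54, 58, 50, 57 and 51 of 76, where 50.4%, 50.8%, 50.3%, 49.9% and 50.1% of all genes were negative. The genes of the family move together in a library, so these counts do not hold 76 separate observations. In cells of 4000 to 8000 UMIs the lean was not limited to clusters 0, 2 and 3. There the medians were -0.23 in cluster 2, -0.14 in cluster 0, -0.13 in cluster 3, -0.16 in cluster 7 and -0.09 in cluster 5. Cluster 8, with 4 libraries left, had -0.20. Clusters 6, 1 and 4 had -0.01, 0.03 and 0.09.

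**Figure D4:**
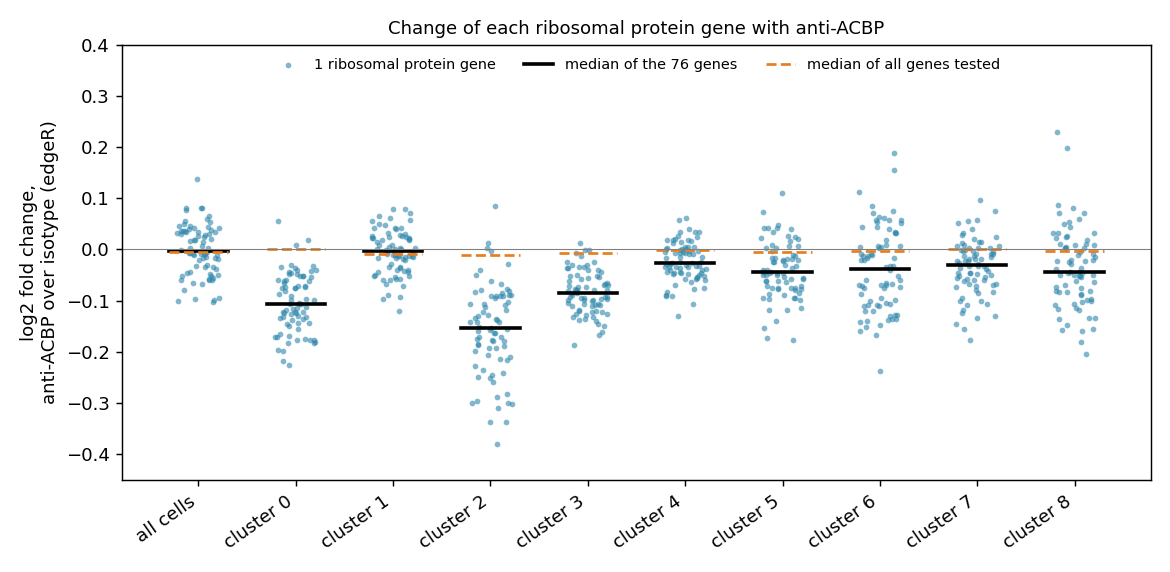
Log2 fold change of each ribosomal protein gene, anti-ACBP over isotype, by edgeR (vertical axis) in all cells and in each cluster. Blue points are single genes, black lines their median and orange dashed lines the median of all genes tested; the points lie mostly below 0 in clusters 0, 2 and 3, with medians of -0.11, -0.15 and -0.09.

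No single gene of the family passed in any cluster. By edgeR's test, 0 of 76 genes passed in each of the 9 clusters, where 4.0% of all genes did in cluster 2, 1.19% in cluster 0, 2.55% in cluster 6, 0.228% in cluster 3, 0.192% in cluster 1, 0.918% in cluster 4, 0.207% in cluster 5, 0.439% in cluster 7 and 0.546% in cluster 8. Unadjusted p-values under 0.05 were found for 18 genes in cluster 2, 13 in cluster 0, 4 in cluster 3, 3 in cluster 6 and 1 in cluster 7, where 21.2%, 15.9%, 11.3%, 14.6% and 9.63% of all genes had one, and for none in clusters 1, 4, 5 and 8, where 13.3%, 11.7%, 8.34% and 9.65% had one. These shares of the family, 18 and 13 of 76, were near those of all genes. DESeq2 called 2 genes, Rpl28 and Rpl41, in cluster 2 (adjusted p = 0.041 and 0.049) and none in the others. Of all genes it called 499 of 10377 in cluster 2.

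In cluster 2 the genes nearest to the threshold were of both subunits. Rpl41 had 5598, 5679 and 5324 CPM in anti-ACBP and 6810, 6278 and 7049 CPM in isotype libraries (log2 fold change -0.30 ± 0.08, SE; edgeR, adjusted p = 0.0568). Rpl28, whose start carries the run of 11 pyrimidines shown above, had 2232, 2127 and 1872 CPM in anti-ACBP and 2951, 2373 and 2668 CPM in isotype libraries (-0.38 ± 0.11; edgeR adjusted p = 0.0694). For each, all anti-ACBP mice were below all isotype mice.

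Rps18, a protein of the small subunit's head with the same length of run, had 1829, 1792 and 1716 CPM in anti-ACBP and 2216, 2050 and 2150 CPM in isotype libraries of cluster 2, a log2 fold change of -0.29. Rps26 had 2920, 2706 and 2370 CPM in anti-ACBP and 3411, 3150 and 3410 CPM in isotype libraries (-0.34). Rpl10a, a protein of the stalk at which spent tRNA leaves, had 1664, 1584 and 1386 CPM in anti-ACBP and 2098, 1757 and 1920 CPM in isotype libraries (-0.34). None of the 3 overlapped between groups, nor did Rpl32 (-0.31) and Rpl36a (-0.30), and the edgeR adjusted p-values of these 5 genes lay between 0.0639 and 0.0877. In all, 29 of the 76 genes (38.2%) were lower without overlap in cluster 2 and 0 higher, where 12.2% of all genes were lower without overlap.

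**Figure D5:**
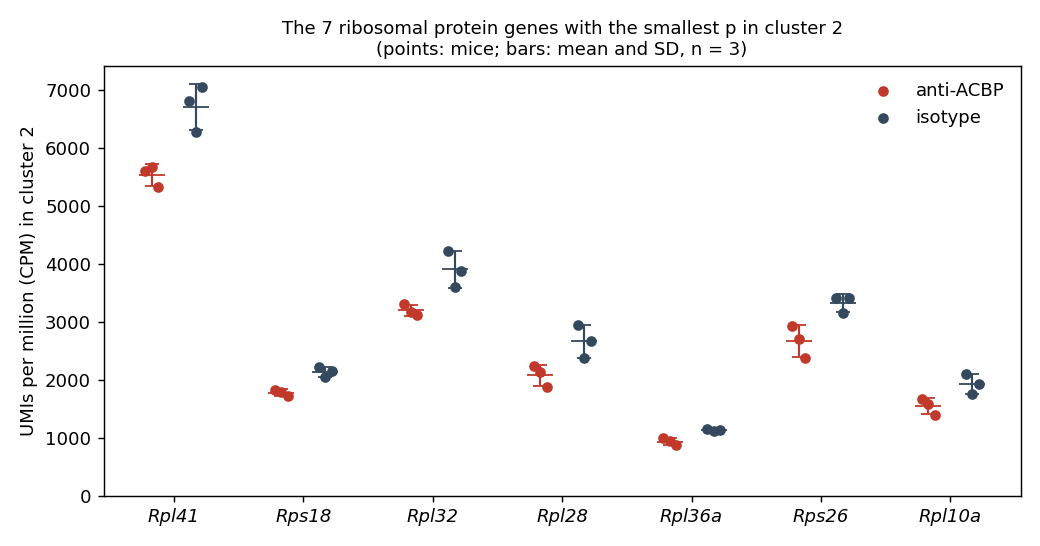
CPM in cluster 2 (vertical axis from 0) of the 7 ribosomal protein genes with the smallest p there, anti-ACBP to the left of isotype; points are mice, bars the mean and SD of 3 mice. In each gene the 3 anti-ACBP mice lie below the 3 isotype mice, for Rpl28 at 1872 to 2232 against 2373 to 2951 CPM.

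The summed share in cluster 2 was 18.3% ± 0.803 in anti-ACBP and 20.0% ± 0.596 in isotype libraries (SD, n = 3 each), a difference of -1.75 percentage points. The groups did not overlap, which gives the smallest p possible with 3 mice a group (exact permutation p = 0.1; adjusted over the 9 clusters p = 0.45). Other values of cluster 2 moved with it. Cells outside G1 made up 21.5%, 17.8% and 14.7% in anti-ACBP and 34.97%, 29.99% and 34.6% in isotype libraries, and the 3 cycling markers, all detected, summed to 356 to 448 CPM and 530 to 942 CPM. The 2 CD8 genes Cd8a and Cd8b1 summed to 71.0 to 120 CPM in anti-ACBP and 26.4 to 52.5 CPM in isotype libraries. The 4 regulatory T markers summed to 3333 to 4668 CPM and 3732 to 4378 CPM and overlapped. Median UMIs per cell were 5278, 7092 and 5336 in anti-ACBP and 8770, 4725 and 4202 in isotype libraries, and cluster 2 held 7.8% to 16.1% of the cells of anti-ACBP and 16.2% to 18.9% of those of isotype libraries.

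The lower share in cluster 2 was also present in narrower sets of cells. In G1 cells it was 17.6%, 17.2% and 17.2% in anti-ACBP and 19.5%, 18.1% and 18.6% in isotype libraries. In cells of 4000 to 8000 UMIs it was 16.7%, 15.2% and 15.9% in anti-ACBP and 17.7%, 18.1% and 19.0% in isotype libraries. Neither pair of groups overlapped. In cells of 4000 to 8000 UMIs, 7 genes passed edgeR's test in cluster 2, all lower: Rpl10a, Rpl28, Rpl32, Rpl41, Rpl36a, Rps20 and Rpl37, with log2 fold changes from -0.59 to -0.35. Of all genes, 133 of 8450 passed there. In G1 cells 0 passed, where 161 of 9472 genes did. What the CD8 transcripts contribute was not tested.

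In cluster 0 the share was 25.2%, 26.6% and 26.1% in anti-ACBP and 28.0%, 27.0% and 26.5% in isotype libraries, and the groups overlapped (25.97% ± 0.686 and 27.2% ± 0.809, SD, n = 3 each; exact permutation p = 0.2; adjusted p = 0.6). Rpl10a and Rpl28 again had the smallest p of the family. Rpl10a had 2011, 2192 and 2155 CPM in anti-ACBP and 2424, 2430 and 2385 CPM in isotype libraries (log2 fold change -0.22 ± 0.06, SE; edgeR, adjusted p = 0.119). Rpl28 had 3045, 3199 and 3183 CPM in anti-ACBP and 3644, 3424 and 3616 CPM in isotype libraries (-0.22 ± 0.07; edgeR adjusted p = 0.139). Both were separate between the groups, as were 17 of 76 genes (22.4%), all lower, where 7.01% of all genes were lower without overlap. In cells of 4000 to 8000 UMIs the share itself did not overlap, at 24.9%, 26.2% and 25.1% in anti-ACBP and 27.6%, 27.1% and 26.5% in isotype libraries.

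In cluster 6 the share was 23.6%, 24.6% and 23.9% in anti-ACBP and 25.2%, 25.05% and 24.7% in isotype libraries, without overlap (exact permutation p = 0.1; adjusted p = 0.45). There 20 genes were lower without overlap, where 9.85% of all genes were, and Rpl29 was higher, with 2643, 2615 and 2655 CPM in anti-ACBP and 2423, 2224 and 2398 CPM in isotype libraries (0.19; edgeR adjusted p = 0.207). In G1 cells of cluster 6 the groups overlapped. Cells outside G1 made up 24.4% to 30.5% of cluster 6 in anti-ACBP and 30.4% to 39.8% in isotype libraries. In clusters 1, 3, 4, 5, 7 and 8 the shares overlapped, with exact permutation p from 0.3 to 0.9; cluster 8 rested on 14 to 46 cells in anti-ACBP and 43 to 330 cells in isotype libraries.

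Across the 9 clusters, Rpl22 was lower without overlap in 5 (clusters 0, 2, 5, 6 and 8), more than any other member. In cluster 0 it had 1729, 1795 and 1791 CPM in anti-ACBP and 2007, 1955 and 1865 CPM in isotype libraries. In cluster 6 it had 1472, 1562 and 1570 CPM in anti-ACBP and 1670, 1793 and 1753 CPM in isotype libraries. Its adjusted p was above the threshold in each (edgeR, 0.197 or more). Rpl10a, Rpl28, Rpl37, Rpl41 and Rps18 were lower without overlap in 4 clusters each. Rpl13a went the other way, negative in 1 cluster only. In clusters 3, 5, 7 and 8, 9, 3, 4 and 1 of the 76 genes were lower without overlap, where 6.21%, 6.86%, 6.69% and 7.47% of all genes were, and in clusters 1 and 4 none was, where 9.59% and 7.27% of all genes were.

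Whether the antibody changed the family differently in 2 clusters was tested directly as an interaction. Between clusters 2 and 0, 0 of 76 genes passed (edgeR, 0.521% of 11138 genes called; 1 member, Rpl29, at an unadjusted p under 0.05; DESeq2 0), with a median difference of -0.05. Between clusters 1 and 0, 0 passed (edgeR, 0.11% of 10953 genes called; 3 members, Rps2, Rpl4 and Rps6, at an unadjusted p under 0.05; DESeq2 0), with a median difference of 0.10. With 1 library left out the first median ran from -0.10 (without anti-ACBP 1) to -0.01 (without anti-ACBP 3) and the second from 0.04 (without anti-ACBP 1) to 0.14 (without anti-ACBP 3). In cells of 4000 to 8000 UMIs the medians were -0.08 and 0.17. There 2 and 39 of 76 members had an unadjusted p under 0.05 (edgeR). Of all genes, 1099 of 9812 and 773 of 9994 had one. Without anti-ACBP 3 it was 17 members between clusters 1 and 0 (1033 of 11092 genes). Without anti-ACBP 1 it was 15 between clusters 2 and 0 (1025 of 11306 genes) and 0 between clusters 1 and 0. No member passed in any of these fits. The lower values of clusters 0 and 2 and the values near 0 of cluster 1 were thus not shown to differ gene by gene. Whether the family as a whole differed was not tested.

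A separate pattern ran through 3 genes of short proteins, whose levels differed between libraries of the same group. Rps28, Rpl38 and Rps29 had the largest differences between mice of 1 group, with coefficients of variation of 10.4%, 10.6% and 11.3%. Rps29, a zinc-binding protein of the small subunit, had 4330, 4891 and 4151 CPM in anti-ACBP and 4054, 5347 and 4974 CPM in isotype libraries. Rpl38, of the large subunit, had 3757, 4206 and 3602 CPM in anti-ACBP and 3388, 4407 and 4051 CPM in isotype libraries, and Rps28, of the small subunit, 3341, 3882 and 3403 CPM in anti-ACBP and 3221, 4077 and 3964 CPM in isotype libraries. In all 3 genes anti-ACBP 1, anti-ACBP 3 and isotype 1 were the low libraries. Their sum was lower in each of these libraries than in each of the others in all 9 clusters, for example 11766, 13955 and 11701 CPM in anti-ACBP and 11822, 15236 and 13947 CPM in isotype libraries of cluster 0. These are the libraries with the most UMIs (53150273 and 34330706 in anti-ACBP 1 and 3, 65519423 in isotype 1, against 27791735 to 30008177 in the others), and the part of sequencing depth was not tested. Rpl13a also varied by library (7.91%) and was lowest in isotype 3 in all 9 clusters. Rpl37a, at 4980, 4934 and 4990 CPM in anti-ACBP and 4866, 4974 and 4912 CPM in isotype libraries, varied least (0.85%).

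The genes around the ribosome were examined by list. Of 29 translation factors and other TOP genes, 0 passed edgeR's test in all cells, where 2.38% of all genes did. An unadjusted p under 0.05 was found for 3 of them, where 21.8% of all genes had one. Their median log2 fold change was 0.02. In cluster 2 their median was -0.12, with 24 of 29 negative, where 51.5% of all genes were. There 0 passed, where 4.0% of all genes did. The median was -0.06 without isotype 1 or anti-ACBP 3 and -0.04 in G1 cells. Snhg1, a TOP transcript that hosts small nucleolar RNAs, fell in cluster 0, with 65.2, 65.5 and 73.8 CPM in anti-ACBP and 88.5, 95.3 and 98.1 CPM in isotype libraries (-0.50 ± 0.08 SE; edgeR adjusted p = 0.0300). That call was lost without isotype 3, anti-ACBP 1 or anti-ACBP 2, where the adjusted p reached 0.178. Vim, the intermediate filament protein whose mRNA is a TOP transcript in human cells, rose in clusters 5 (0.57) and 6 (0.55; edgeR adjusted p = 0.00794 and 0.000465). The call in cluster 5 was lost without isotype 3 (edgeR adjusted p = 0.0792) and that in cluster 6 in cells of 4000 to 8000 UMIs (edgeR adjusted p = 0.277). Of all genes, 1.19% passed in cluster 0, 0.207% in cluster 5 and 2.55% in cluster 6.

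Ribosome assembly showed no passing gene. Of 73 genes of ribosome biogenesis and RNA polymerase I, 0 passed edgeR's test in all cells, where 2.38% of all genes did. An unadjusted p under 0.05 was found for 21, where 21.8% of all genes had one. In cluster 1, 63 of the 73 were positive, where 48.5% of all genes were, with a median log2 fold change of 0.22 against -0.01 for all genes. There 25 were higher without overlap, where 9.98% of all genes were. Of the 73, 0 passed there, where 0.192% of all genes did. An unadjusted p under 0.05 (edgeR) was found for 24, where 13.3% of all genes had one. The 76 ribosomal protein genes of cluster 1 had a median of 0.00. Of 78 mitochondrial ribosomal protein genes, 0 passed in all cells, where 2.38% of all genes did. An unadjusted p under 0.05 (edgeR) was found for 6, where 21.8% of all genes had one, and the median was 0.00. In cluster 2, 0 passed, where 4.0% of all genes did. There 65 were negative, where 51.5% of all genes were, with a median of -0.11. That median was -0.01 in cells of 4000 to 8000 UMIs and 0.01 in G1 cells, and ran from -0.19 (without anti-ACBP 1) to -0.06 (without anti-ACBP 2).

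In the mTORC1 list, 2 of 43 tested genes fell in all cells and 0 rose, where 0.841% of all genes fell and 1.54% rose. Ddit4, an inhibitor of mTORC1 induced by stress and hypoxia, had 213, 236 and 192 CPM in anti-ACBP and 549, 612 and 633 CPM in isotype libraries (log2 fold change -1.48 ± 0.09, SE; edgeR, adjusted p = 0.00268), and it also fell in clusters 0, 1, 2, 3, 4, 6 and 7. Eif4ebp1, a repressor of cap-dependent translation that mTORC1 inactivates, had 30.8, 27.7 and 32.8 CPM in anti-ACBP and 48.2, 40.7 and 47.9 CPM in isotype libraries (-0.58 ± 0.10; edgeR adjusted p = 0.0357). It fell in clusters 2 (-0.67) and 4 (-0.61) as well. The all-cell call of Eif4ebp1 was lost without isotype 3 or any 1 of the anti-ACBP libraries, with an adjusted p of up to 0.136. Its call in cluster 2 was lost in 3 of the fits with 1 library left out (edgeR adjusted p up to 0.0794). That in cluster 4 was lost in 5 of them (up to 0.164). Of 15 genes of dissociation and heat stress, 3 rose and 0 fell. Atf3 (1.28), Egr1 (1.33) and Ier2 (0.45) rose in all cells (edgeR adjusted p = 0.0200, 0.0362 and 0.0461), and the median of that list was -0.23. The calls of Egr1 and Ier2 were lost without any 1 library other than isotype 1, and that of Atf3 without isotype 3, anti-ACBP 1 or anti-ACBP 3, with adjusted p-values of up to 0.167.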

How the data were processed

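The deposited count tables hold UMI counts per gene and cell barcode, whole numbers without scaling, made by the authors with Cell Ranger 7.0.0 on the mm10 build, per the submitters' processing notes, which also name Seurat. No source used here says how reads shared with the many ribosomal protein pseudogenes were counted. Cells and clusters are those of the deposited cell table, 30749 of 69249 barcodes. In every cell the table's UMI total equalled the sum of the matrix. No doublet caller was run, and cells marked FALSE in the deposited column DF1, which no source used here explains, were kept. Library codes were matched to groups through the sample titles.

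UMIs were summed per library and cluster, and the mouse was the replicate. Receptor and immunoglobulin segments were left out of the fits. Genes were tested two-sided in edgeR 4.0.16 (robust quasi-likelihood F test with TMM factors, after the default filterByExpr filter; all 76 genes passed the filter in every fit) and adjusted by Benjamini-Hochberg over all genes tested, with DESeq2 1.42.0 as an alternative. Interactions had the library as a block. Shares were compared by exact permutation. Scripts were tested on simulated data. Wilson 95% intervals of a share, which cover counting error only, reach at most 0.016 percentage points either side in all cells and 0.232 in cluster 8.

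The ribosomal protein genes, the other gene lists and the tests were chosen with earlier results of these data known. Named are all members that passed, 8 members in all cells (Rplp0, Rplp1, Rps6, Rpsa, Rpl22, Rps27, Rpl39 and Rpl41), 4 paralogs, the 2 highest and 2 lowest members of each cluster, the 10 genes most like the family, and the passing members of other lists with the 4 smallest p. Some of the genes these rules pick are left out of the text and figures and not reported here. The members named in clusters 0, 2, 3 and 6 for a small p or a lack of overlap, those named for their spread between mice, and the passing stress genes were chosen after their values were seen. Alternatives were other normalizations, no filter, a replicate block, each library left out, cells of 4000 to 8000 UMIs, G1 cells, and cells without DF1 FALSE. For the share in all cells, weighting the clusters equally was a further alternative. Those of the stress genes and of list medians within clusters were added after the values were seen.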

Additional observations from a re-analysis of the deposited data

Results flagged for a closer look

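For 2 genes of the lists set beside the ribosomal protein genes, the change with anti-ACBP differed between clusters in a direct test of that difference. Hspa1a, an inducible heat shock protein, had a log2 fold change lower by 2.17 in cluster 2 than in cluster 0 (difference -2.17 ± 0.34, SE; edgeR interaction, adjusted p = 0.0108). Snhg1, the host of small nucleolar RNAs that fell in cluster 0, had a log2 fold change higher by 0.63 in cluster 1 than in cluster 0 (0.63 ± 0.11, SE; edgeR interaction, adjusted p = 0.0376). No ribosomal protein gene differed between these clusters by that test.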

How the results depend on the processing

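The number of ribosomal protein genes that passed in the 9 clusters together, 0, was 4 without TMM factors, 2 with DESeq2, 9 without the filter on low counts, 2 with the replicate number as a block and 8 in cells of 4000 to 8000 UMIs, and 0 to 7 with 1 library left out (7 without isotype 2, 2 without isotype 1, 1 without anti-ACBP 1). All of these but 3 calls (Rpl28 in cluster 0 in the cells of 4000 to 8000 UMIs, and Rps28 in cluster 3 and Rpl13a in cluster 6 without isotype 1) were in cluster 2, and all but Rpl13a were lower. Of all genes, cluster 2 had 466 of 10377 called without TMM factors and 499 of 10377 with DESeq2. It had 900 of 16734 without the filter and 435 of 10377 with the block. In cells of 4000 to 8000 UMIs it had 133 of 8450, and without isotype 2 it had 817 of 10528. The 3 calls elsewhere stood beside 74 of 9674 genes in cluster 0, 276 of 9750 in cluster 3 and 351 of 7899 in cluster 6. In all cells 0 passed under every alternative. Same-numbered libraries had correlations of 0.15, -0.10 and -0.15 in their deviations from the group means. Anti-ACBP 1 correlated best with isotype 1, anti-ACBP 2 with isotype 3 and anti-ACBP 3 with isotype 2. With 3 libraries a group these values cannot settle whether same-numbered libraries are paired. The replicate block raised the genes called from 129 to 307 in cluster 0 and from 22 to 216 in cluster 3. It lowered them from 297 to 66 in all cells and from 185 to 115 in cluster 6. The interaction fits already hold the library as a block.

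The calls in all cells in the lists of translation and TOP genes, paralogs, ribosome biogenesis, mitochondrial ribosomal proteins and mTORC1 together, 2 (both mTORC1), were 11 with DESeq2, 4 without the filter, 1 in cells of 4000 to 8000 UMIs and 1 to 5 with 1 library left out. Of all genes, edgeR called 297 of 12490 and DESeq2 935 of 12490. Without the filter it was 476 of 19772, in cells of 4000 to 8000 UMIs 3 of 11232, and with 1 library left out 1 to 404 genes. Signs turned for values near 0: Rplp0 to -0.020 in cells of 4000 to 8000 UMIs, Rps27 to -0.042 and Rpl36al to -0.0028 in G1 cells, and Rps27l to -0.0013 with TMM factors computed without the family, -0.0056 without TMM factors, -0.0043 with the replicate block, -0.074 in cells of 4000 to 8000 UMIs and -0.067 without DF1 FALSE cells. With 1 library left out, Rplp0 ran from -0.012 to 0.106, Rplp1 from -0.096 to 0.0057, Rps6 from -0.057 to 0.048, Rps27l from -0.095 to 0.064 and Rpl36al from -0.00083 to 0.037. The difference in share turned positive in cells of 4000 to 8000 UMIs in cluster 1 (0.175 percentage points) and cluster 4 (1.01), and in cluster 4 without DF1 FALSE cells (0.938). With 1 library left out it ran from -0.287 to 0.154 in all cells, -0.912 to 0.357 in cluster 1, -0.362 to 0.373 in cluster 4 and -2.07 to 0.323 in cluster 8. The gap of cluster 2 was -7.23 in cells of 4000 to 8000 UMIs and -7.16 in G1 cells. The causes were not tested.

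Cluster 4 holds no G1 cells, so no G1 value exists there. With 3 mice a group no share could pass its test.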
